A study of Mus musculus with 16 samples.

Results

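The 10 genes described here encode the prolyl and lysyl hydroxylases that need ascorbate, with 1 partner subunit: P4ha1, P4ha2 and P4hb of collagen prolyl 4-hydroxylase, the lysyl hydroxylases Plod1, Plod2 and Plod3, the oxygen-sensing prolyl hydroxylases Egln1, Egln2 and Egln3, and the asparaginyl hydroxylase Hif1an. They were taken by gene symbol, and all 10 were present among the 27998 gene entries of the single-cell count matrices. The authors' deposited methylation table lists 86510 regions that differ, and 62 of them were annotated to 9 of these genes. The material was kidney of C57BL/6 mice, wild type or Gulo-/-. The product of Gulo completes ascorbate synthesis, and mice without it depend on ascorbate from the diet. Single-cell RNA libraries came from 2 wild type and 2 Gulo-/- samples, and the methylation table compared bisulfite libraries of the same numbers. The labels give no age, sex or dietary ascorbate, and they do not state whether each library is a different animal. The p-values therefore reflect no more than the variation among these libraries. Sex-linked RNA counts, given below, mark the 2 libraries of each genotype as of different sex. They are thus not from 1 animal, and the variation includes sex. Its technical part is not known.

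Collagen prolyl 4-hydroxylase is a tetramer of catalytic alpha subunits and of P4hb, a protein disulfide isomerase that is not itself a hydroxylase. It hydroxylates collagen prolines in the endoplasmic reticulum, which makes the triple helix stable, and the lysyl hydroxylases modify collagen lysines for cross-linking and sugar attachment. The Egln enzymes hydroxylate the alpha subunits of hypoxia-inducible factor (HIF) so that they are degraded, and Hif1an, also called FIH, hydroxylates an asparagine, which blocks their binding of co-activators. All of these hydroxylases use iron and 2-oxoglutarate, and ascorbate keeps the iron reduced. Egln3 and P4ha1 are themselves known HIF targets.

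The deposited libraries held 10073836 to 88925323 UMIs. Filtering left 1575 cells of wild type replicate 1, 7086 of wild type replicate 2, 1849 of Gulo-/- replicate 1 and 12403 of Gulo-/- replicate 2, with median depths of 3014 to 4882.5 UMIs (unique transcript molecules) per cell. The wild type libraries shared 986 barcodes, against 33.5 that chance would give, and the shared ones were taken out of replicate 2. Xist and Ddx3y counts marked 1 library of each genotype as female, wild type replicate 1 and Gulo-/- replicate 2, and the others as male. For Gulo, 0 and 1 UMIs were counted in wild type and 0 and 2 in Gulo-/- cells, so it gave no check of the genotype. Cells were put into classes by UMIs of marker genes that include none of the 10 genes, and the class names carry "-like" for that reason. In their own class all markers were detected in all 4 libraries for the proximal tubule (10 genes), endothelial (10), thick ascending limb (5), and macrophage and monocyte (7) lists. Proximal tubule-like cells were 59.6% and 73.0% of wild type cells and 31.9% and 20.5% of Gulo-/- cells, while endothelial-like cells were 5.84% and 2.06% against 17.6% and 7.03%. Levels below are CPM (UMIs of the gene in a class of a library, scaled to 1000000 UMIs of that class), in the order wild type 1, wild type 2, Gulo-/- 1, Gulo-/- 2.

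Each class was first compared with proximal tubule-like cells within the libraries. Endothelial-like cells, which line the renal capillaries and vessels, carried more of all lysyl hydroxylases, of P4ha2 and of Egln3. Of 8051 genes tested, 31.4% were called higher and 35.6% lower in endothelial-like cells (edgeR quasi-likelihood test, Benjamini-Hochberg adjusted p under 0.05). Of the 10 hydroxylase genes 5 were higher and 1 was lower. Their median log2 difference was 0.60, against -0.05 over all genes.

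The catalytic alpha subunits were called in partly different classes, and no test compared them with each other. P4ha2 was measured at 2.92, 3.78, 6.86 and 6.33 CPM in proximal tubule-like cells and at 32.8, 19.1, 21.7 and 56.3 CPM in endothelial-like cells. The lowest endothelial-like value exceeded the highest proximal tubule-like one, and the log2 difference was 1.99 ± 0.30 (SE, n = 4 libraries per class; edgeR adjusted p = 5.74e-06). In thick ascending limb-like cells, which reabsorb salt, P4ha2 was at 0, 1.83, 2.57 and 1.72 CPM (the 0 of wild type replicate 1 allows up to 18.8 CPM). These values rest on 0, 2, 1 and 34 UMIs, mostly of Gulo-/- replicate 2. P4ha2 was lower there than in proximal tubule-like cells by a log2 difference of -2.10 ± 0.44 (edgeR adjusted p = 0.000561). P4ha1 was at 7.04, 12.05, 16.8 and 13.0 CPM in proximal tubule-like cells and at 68.2, 17.2, 29.0 and 20.9 CPM in endothelial-like cells. Wild type replicate 1 stood far above the others there, and the difference did not pass the test (0.50 ± 0.33, edgeR adjusted p = 0.199), though it did with scaling by library size alone (1.24, adjusted p = 0.00402). In macrophage and monocyte-like cells P4ha1 was at 59.1, 19.7, 48.2 and 24.5 CPM, from 8, 10, 6 and 11 UMIs. Its log2 difference there was 1.07 ± 0.43 (edgeR adjusted p = 0.0403). That call was lost without wild type replicate 1 (adjusted p = 0.0674) or without Gulo-/- replicate 1 (0.0547). P4ha1 was lower in thick ascending limb-like cells (-0.99 ± 0.39, edgeR adjusted p = 0.0427), at 2.57 to 7.37 CPM from 1, 6, 1 and 146 UMIs. This call was lost without wild type replicate 2, Gulo-/- replicate 1 or Gulo-/- replicate 2 (adjusted p = 0.157, 0.131 and 0.0886). It was also lost with library size alone (0.124) or DESeq2 size factors (0.0642).

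As a share of the UMIs of P4ha1 and P4ha2 together, P4ha2 made up 23.9% to 32.7% over the 4 libraries in proximal tubule-like cells. In endothelial-like cells it made up 32.5% to 72.9%, a range that overlaps the proximal tubule-like one at its edge. In principal-like cells of the collecting duct, over the 3 libraries with at least 20 such cells, it made up 0% (0 of 18 UMIs, which allows a share of up to 16.7%, counting error only) to 6.71%. A fit added after seeing the data took in principal-like cells, intercalated-like cells and cells like those of the distal convoluted and connecting tubule. There P4ha2 was lower than in proximal tubule-like cells in each class (edgeR adjusted p = 1.34e-06, 6.14e-06 and 0.00036), with log2 differences of -3.36 ± 0.51 in principal-like and -3.44 ± 0.57 in intercalated-like cells. These rest on few P4ha2 UMIs, mostly of Gulo-/- replicate 2: in the order wild type 2, Gulo-/- 1 and Gulo-/- 2, there were 0, 1 and 10 in principal-like cells, 1, 0 and 6 in intercalated-like cells, and 0, 0 and 3 in the distal class, for which no fold is given. In that fit 28.9%, 25.6% and 23.2% of 9813 genes were called lower in these classes. P4ha1 was called in none of these 3 classes, with log2 differences of 0.05 ± 0.35, -0.75 ± 0.40 and -0.21 ± 0.46.

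The promoter windows at hand run from 250 bases before to 50 bases after the start of transcription. Only those of P4ha1 and P4ha2 overlap a listed methylation region annotated to the same gene. Regions annotated to other genes were not compared with the windows. The promoter regions of P4hb, Plod1 and Egln1 lie outside their windows. Plod2 had no window, so its promoter region could not be compared. The P4ha1 and P4ha2 windows are printed here in full (RefSeq, build GRCm38.p6, + strand, 5′ to 3′). Capitals mark the bases inside the region, counted from the CpG at its start. The P4ha1 window lies at chr10:59323046-59323345 and the P4ha2 window at chr11:54100674-54100973.
P4ha1: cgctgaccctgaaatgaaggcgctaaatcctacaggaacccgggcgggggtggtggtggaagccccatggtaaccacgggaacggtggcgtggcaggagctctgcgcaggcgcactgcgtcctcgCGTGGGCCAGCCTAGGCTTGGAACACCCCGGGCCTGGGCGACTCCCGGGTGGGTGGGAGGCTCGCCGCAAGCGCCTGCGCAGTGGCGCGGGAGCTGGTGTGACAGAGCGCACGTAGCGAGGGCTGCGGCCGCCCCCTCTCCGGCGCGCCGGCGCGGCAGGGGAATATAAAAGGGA
P4ha2: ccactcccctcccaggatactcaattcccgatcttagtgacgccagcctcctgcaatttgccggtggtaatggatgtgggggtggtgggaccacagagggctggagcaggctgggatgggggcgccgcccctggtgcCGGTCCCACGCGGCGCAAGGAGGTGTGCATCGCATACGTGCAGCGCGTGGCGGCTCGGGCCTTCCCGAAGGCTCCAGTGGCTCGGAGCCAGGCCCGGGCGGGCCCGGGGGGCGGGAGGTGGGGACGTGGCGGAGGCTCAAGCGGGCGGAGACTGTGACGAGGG
The P4ha1 window holds 32 CpGs, of which 21 lie in the 175 capital bases, and the P4ha2 window holds 26, of which 21 lie in the 163 capital bases. The HIF core motif is written ACGTG or GCGTG, searched on both strands. P4ha1 has 1 and 2 matches, with 1 ACGTG inside its region. Of its GCGTG matches 1 crosses the region's border, and the CpG of that match is the first of the region. P4ha2 has 2 and 2 matches, all inside its region. Over 32851 RefSeq promoter windows of the same length, 43.8% held at least 1 match of either motif and 3.9% at least 4. That background was not matched for CpG content, and both motifs contain a CpG. Windows were available for 9 of the 10 genes (not Plod2), 10 windows in all, and 9 of these held a match. The Plod3 window held 4 matches as well, and 1 window of Egln2 held 6. A match of these letters describes the sequence and does not show binding.

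P4hb, the beta subunit, did not follow the alpha subunits. It was at 61.4, 75.6, 186.3 and 86.3 CPM in proximal tubule-like cells and at 116.1, 82.1, 107.4 and 100.8 CPM in endothelial-like cells, so the values overlapped. The test placed it lower in endothelial-like cells (-0.64 ± 0.24, edgeR adjusted p = 0.0208), but with library size scaling the sign turned (0.11, adjusted p = 0.705) and with DESeq2 size factors the call was lost (adjusted p = 0.0884). Without wild type replicate 2, Gulo-/- replicate 1 or Gulo-/- replicate 2 it was lost as well (adjusted p = 0.0718, 0.397 and 0.0699). In thick ascending limb-like cells P4hb was at 137.9, 117.9, 270.0 and 167.7 CPM (0.52 ± 0.23, edgeR adjusted p = 0.0695). It was called higher there with library size alone (0.80, edgeR adjusted p = 0.00951) and with DESeq2 size factors (0.63, adjusted p = 0.0337).

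The lysyl hydroxylase Plod1 showed the largest difference of the 10 genes in endothelial-like cells. It was at 3.09, 4.44, 6.18 and 6.04 CPM in proximal tubule-like cells and at 55.6, 34.4, 63.9 and 39.2 CPM in endothelial-like cells, with no overlap (2.48 ± 0.32, edgeR adjusted p = 1.09e-06). It was also called higher in thick ascending limb-like cells (0.96 ± 0.38, edgeR adjusted p = 0.0432), a call lost on leaving out any of the 4 libraries (adjusted p from 0.0561 to 0.131). Plod3, which also has sugar-transferring activity, was at 4.46, 3.95, 8.24 and 7.48 CPM in proximal tubule-like cells and at 40.4, 19.1, 21.7 and 29.6 CPM in endothelial-like cells (1.45 ± 0.26, edgeR adjusted p = 5.64e-05). In macrophage and monocyte-like cells it was at 22.2, 33.6, 32.1 and 51.2 CPM (2.42 ± 0.32, edgeR adjusted p = 1.31e-06), from only 3, 17, 4 and 23 UMIs. Each of these values lay above every proximal tubule-like one, and for Plod3 in both classes and Plod1 in endothelial-like cells the call held on leaving out each library.

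Plod2, which hydroxylates the telopeptide lysines of collagen, had a different spread over the classes. It was at 5.84, 9.87, 6.18 and 8.25 CPM in proximal tubule-like cells and at 17.7, 22.9, 30.2 and 16.4 CPM in endothelial-like cells (0.71 ± 0.30, edgeR adjusted p = 0.0406). That call was lost without wild type replicate 1 (adjusted p = 0.0514) or Gulo-/- replicate 1 (0.214). Without Gulo-/- replicate 2, Plod2 did not pass the filter on low counts and was not tested in any class contrast. The same held for P4ha2, Egln3 and Hif1an, so their class calls were not checked without that library. In macrophage and monocyte-like cells Plod2 had 2 UMIs, all in wild type replicate 2, and was called lower (edgeR adjusted p = 0.00754). It was lower by -2.83 ± 0.48 in intercalated-like cells and by -2.68 ± 0.59 in the distal convoluted and connecting tubule class in the added fit (edgeR adjusted p = 8.4e-06 and 0.000435), whereas in principal-like cells the difference was 0.62 ± 0.30 (adjusted p = 0.0753). In the order wild type 2, Gulo-/- 1 and Gulo-/- 2, Plod2 had 3, 1 and 8 UMIs in intercalated-like cells and 0, 1 and 4 in the distal class. Of the UMIs of the 3 Plod genes, Plod2 made up 45.4% to 51.6% in principal-like cells (16 of 31, 15 of 33 and 188 of 414). In intercalated-like cells, the other epithelial type of the collecting duct, it made up 8 of 166 (4.82%) in Gulo-/- replicate 2, while the shares of the other libraries rest on 12 and 3 UMIs (25% and 33.3%).

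Macrophage and monocyte-like cells differed in both directions. Of 8051 genes 22.8% were called higher and 34.3% lower in them than in proximal tubule-like cells, and of the 10 hydroxylase genes 3 were higher (Plod3, Plod1 and P4ha1) and 3 lower (Egln1, Plod2 and Egln2). Plod1 there was at 44.4, 21.7, 0 and 6.68 CPM, the 0 allowing up to 24.1 CPM (1.52 ± 0.53, edgeR adjusted p = 0.0186), and was no longer called without wild type replicate 1 (adjusted p = 0.105) or replicate 2 (0.205). In thick ascending limb-like cells 21.5% of genes were higher and 24.4% lower, against 1 and 2 of the 10. With library size alone 4 of the 10 were higher and 1 lower, and with DESeq2 size factors 2 were higher and 1 lower.

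Among the oxygen sensors, Egln3 was called higher in endothelial-like cells. It was at 2.58, 5.18, 5.15 and 3.93 CPM in proximal tubule-like cells and at 48.0, 21.0, 16.9 and 19.0 CPM in endothelial-like cells (1.74 ± 0.42, edgeR adjusted p = 0.00104), with no overlap. Intercalated-like cells had 6 Egln3 UMIs over the 3 libraries of the added fit, a log2 difference of -3.15 ± 0.74 (edgeR adjusted p = 0.000641). Egln1, the main HIF prolyl hydroxylase under normal oxygen, was at 10.8, 14.1, 16.5 and 13.1 CPM in proximal tubule-like cells and at 7.58, 30.6, 15.7 and 20.2 CPM in endothelial-like cells, which overlap (-0.23 ± 0.30, edgeR adjusted p = 0.508). In macrophage and monocyte-like cells it had 5 UMIs in all and was called lower (-2.06 ± 0.62, edgeR adjusted p = 0.00711), but not without wild type replicate 2 (adjusted p = 0.124).

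The endothelial difference of Egln2 depended on the scaling. Egln2 was at 41.7, 55.1, 35.3 and 45.3 CPM in proximal tubule-like cells and at 68.2, 64.9, 67.6 and 90.5 CPM in endothelial-like cells. These values did not overlap, but with TMM scaling (which sets the bulk of genes equal) the log2 difference was -0.02 ± 0.23 (edgeR adjusted p = 0.943), and with library size alone it was 0.73 (adjusted p = 0.0108). In the added fit, run with TMM scaling only, Egln2 was called lower in principal-like cells (-0.71 ± 0.23, edgeR adjusted p = 0.00831). It was also called lower in the distal convoluted and connecting tubule class (-0.69 ± 0.26, edgeR adjusted p = 0.0358). Its level in principal-like cells was 54.1, 36.4 and 50.6 CPM (wild type 2, Gulo-/- 1, Gulo-/- 2), which overlaps the proximal tubule-like values. In the distal class it was 38.4, 26.6 and 39.35 CPM in the same order, which overlaps them as well. The lower level called in macrophage and monocyte-like cells (-0.73 ± 0.30, adjusted p = 0.0453) was lost with either other scaling (adjusted p = 0.146 and 0.288) and on removing any library but Gulo-/- replicate 2 (adjusted p = 0.276, 0.67 and 0.0847). Hif1an was at 6.01, 7.81, 8.58 and 5.76 CPM in proximal tubule-like cells and at 10.1, 9.55, 12.1 and 20.9 CPM in endothelial-like cells (0.29 ± 0.33, edgeR adjusted p = 0.454). In the added fit Hif1an was higher in principal-like cells (0.74 ± 0.32, edgeR adjusted p = 0.0462; 26.9% of genes were called higher there).

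Scaling moved the whole endothelial comparison. The median log2 difference of all genes was -0.05 with TMM and 0.69 with library size alone, and 8 hydroxylase genes were then called higher, P4ha1, Egln2 and Hif1an being the additional ones. The 5 genes called higher with TMM were called with either scaling. Summed proximal tubule markers reached 195.6 to 790.4 CPM in endothelial-like cells, with 9 or 10 of 10 markers detected, against 4271 to 5655 CPM in proximal tubule-like cells. The part of this carried-over RNA in the differences was not tested.

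**Figure D1:**
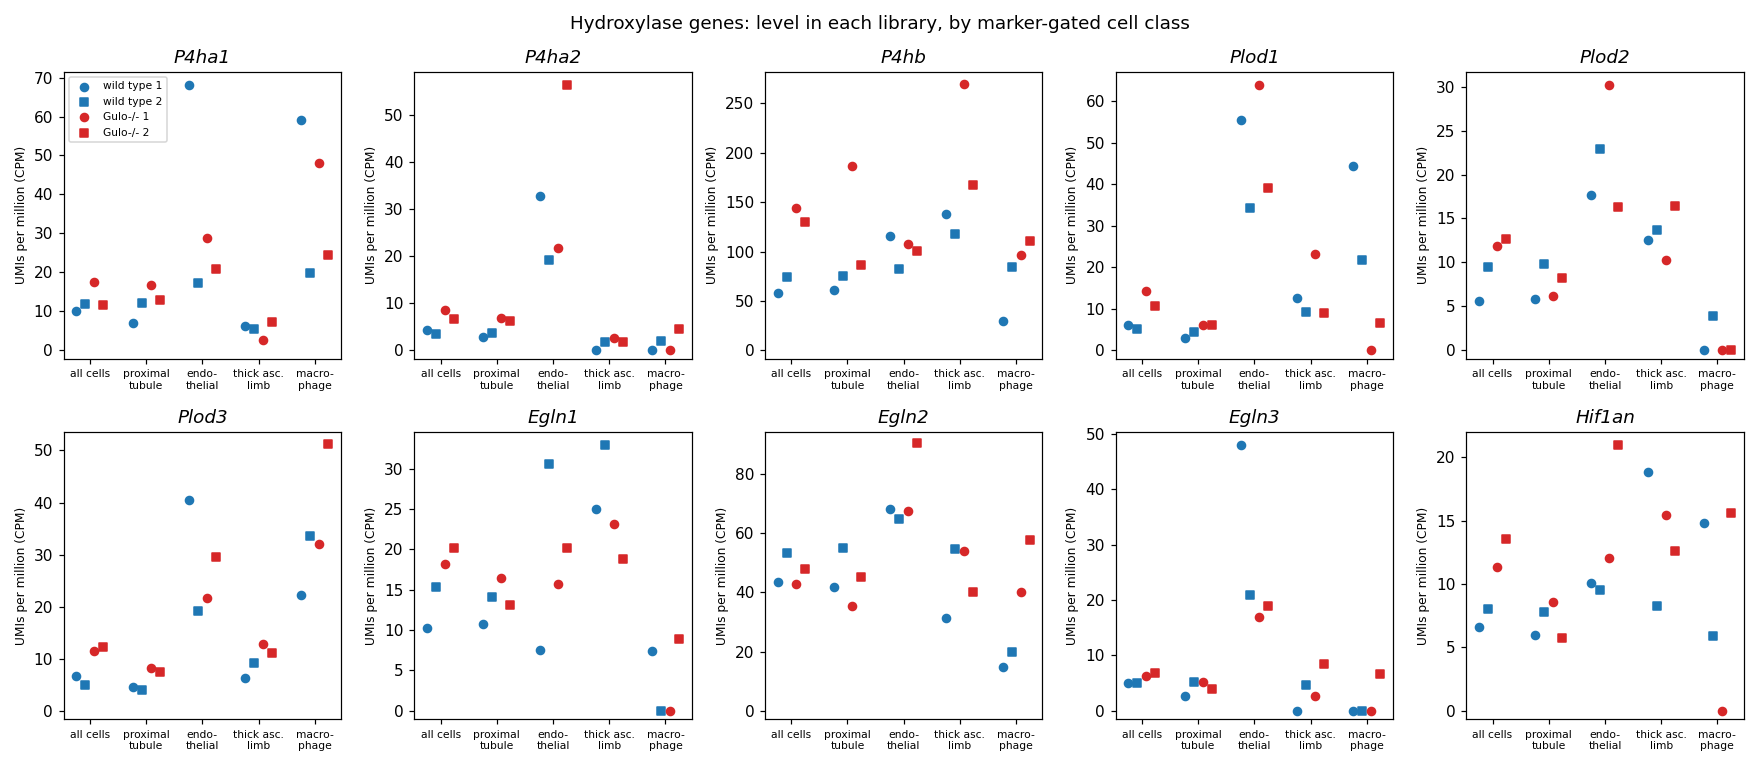
Level (CPM, linear axes) of each of the 10 genes in all retained cells and in 4 cell classes, 1 point per library, blue for wild type and red for Gulo-/-. Endothelial-like points of Plod1 (34.4 to 63.9) and P4ha2 (19.1 to 56.3) lie above all proximal tubule-like points.

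**Figure D2:**
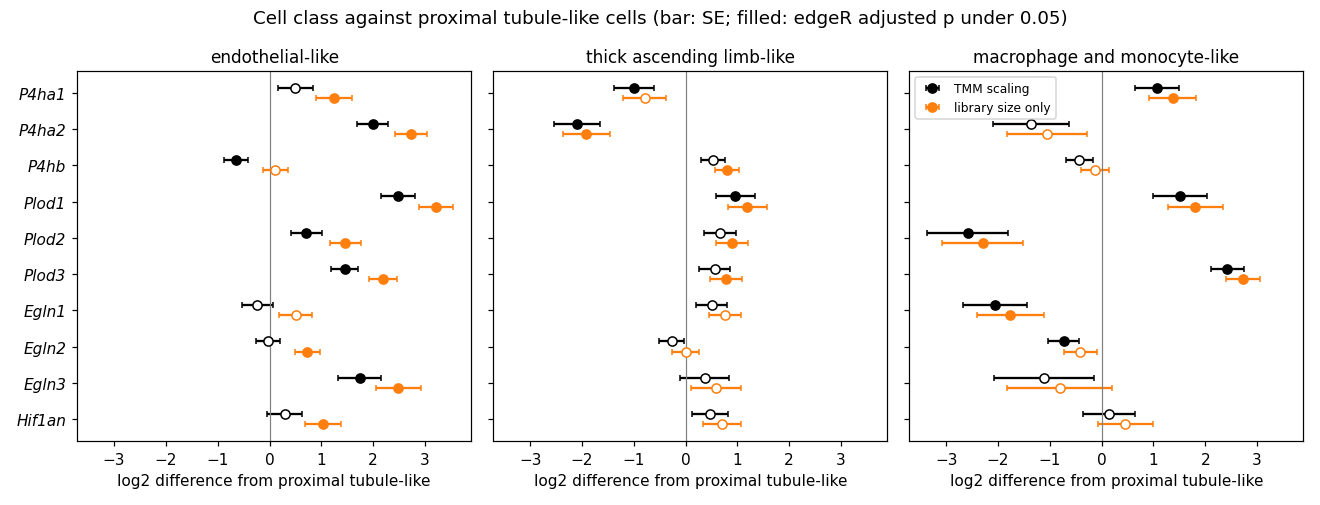
Log2 difference of each gene between 3 cell classes and proximal tubule-like cells, with SE bars, under TMM scaling (black) and library size scaling (orange), and filled symbols for an edgeR adjusted p under 0.05. P4hb in endothelial-like cells changes sign between the scalings (-0.64 and 0.11), and Plod3 in macrophage and monocyte-like cells stays at 2.42 or more.

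**Figure D3:**
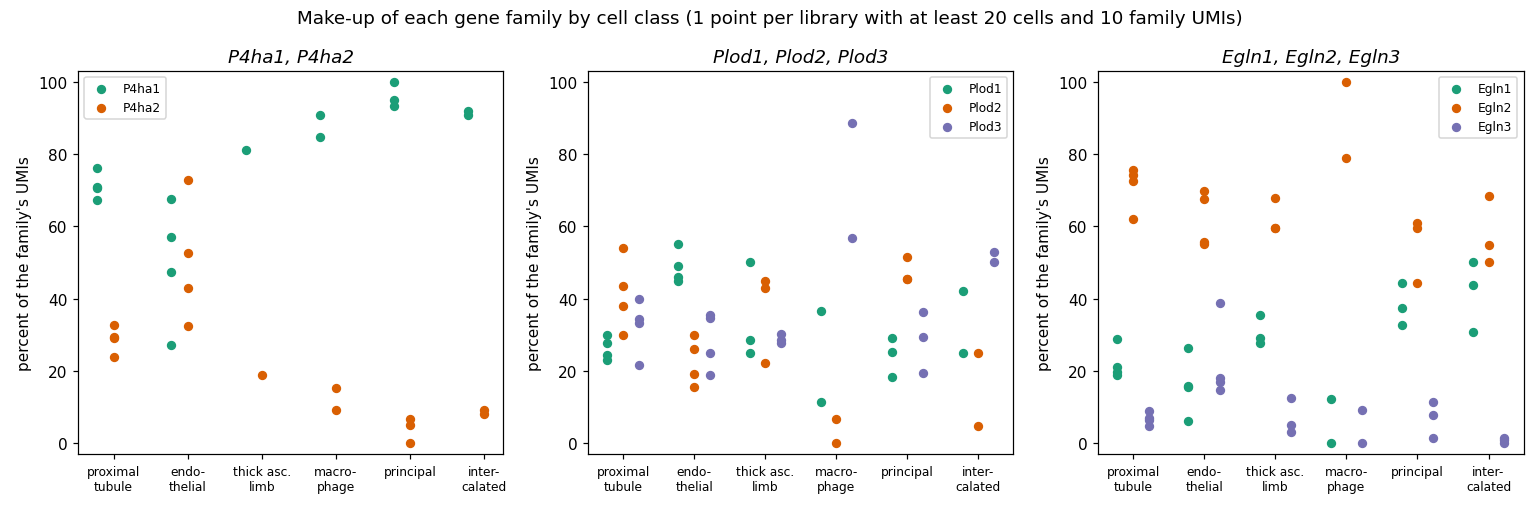
Percent of the UMIs of each gene family that each gene holds, by cell class, 1 point per library with at least 20 cells of the class and at least 10 UMIs of the family. P4ha2 reaches 32.5% to 72.9% in endothelial-like cells and stays at or under 6.71% in principal-like cells.

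Of the genes that act beside these enzymes, the other collagen-modifying and folding genes were mostly higher in endothelial-like cells, with 6 of 9 tested higher and 1 lower. Serpinh1, the collagen chaperone HSP47, differed by 3.16 ± 0.29, Fkbp10 by 5.85 ± 0.61, and Colgalt1, which adds galactose to hydroxylysine, by 1.75 ± 0.28 (edgeR adjusted p = 1.67e-08, 1.27e-07 and 1.13e-05). Among collagens 3 were higher and 2 lower of 5 tested: Col4a1 and Col4a2 were higher (2.96 ± 0.33 and 2.87 ± 0.24), and Col4a3 and Col4a4 lower (-2.08 ± 0.25 and -2.24 ± 0.27; all with edgeR adjusted p of 3.77e-07 or less). Of the HIF pathway genes 4 of 8 were higher and 2 lower, led by Epas1 at 4.57 ± 0.29, which encodes the HIF-2 alpha substrate of the Egln enzymes. HIF target genes were mixed, with 6 higher and 9 lower of 17. Of 7 ascorbate transport and recycling genes 2 were higher and 5 lower. Slc23a2, an ascorbate transporter, was higher by 2.31 ± 0.39, and Slc23a1, the transporter of the tubular brush border, was lower (-4.37 ± 0.33). A list of protein disulfide isomerase genes, the family of P4hb, with other folding genes of the endoplasmic reticulum had 3 higher and 1 lower of 8. The higher genes were the isomerases Pdia5 (3.59 ± 0.36), Pdia3 (0.56 ± 0.20) and Pdia6 (0.69 ± 0.28). The lower gene was the chaperone Canx (-0.78 ± 0.17).

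The comparison of genotypes asked whether loss of Gulo was accompanied by a different level of these genes. None of the 10 was called in any class or in all cells: 0 of 10 in proximal tubule-like cells, 0 of 9 in endothelial-like, 0 of 5 in thick ascending limb-like, 0 of 3 in macrophage and monocyte-like, and 0 of 10 in all retained cells (edgeR quasi-likelihood test). The background was low too, with 0.766%, 0.675%, 1.96%, 0.0628% and 0% of genes called in the same order. Of the 37 unadjusted p-values 3 were under 0.05, for Egln3 in endothelial-like cells, P4hb in thick ascending limb-like cells and Egln2 in all cells. Under the other settings, DESeq2's Wald test among them, 0 of 568 further tests with an adjusted p of these genes were called, the lowest adjusted p being 0.0571.

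In proximal tubule-like cells both Gulo-/- libraries exceeded both wild type libraries in CPM for 5 of 10 genes, where 35.8% of all genes tested did. P4hb measured 61.4 and 75.6 CPM in the wild type libraries and 186.3 and 86.3 CPM in the Gulo-/- libraries, so that Gulo-/- replicate 1 set most of the difference (0.83 ± 0.39, edgeR adjusted p = 0.322). Without that library the difference was 0.12. P4ha2 was at 2.92 and 3.78 CPM against 6.86 and 6.33 CPM (0.77 ± 0.38, edgeR adjusted p = 0.318), and Plod3 at 4.46 and 3.95 against 8.24 and 7.48 CPM (0.73 ± 0.36, adjusted p = 0.321). Plod1 (0.49 ± 0.38) and P4ha1 (0.44 ± 0.33) were the other genes with separate groups. Egln2 was at 41.7 and 55.1 CPM against 35.3 and 45.3 CPM, which overlap (-0.44 ± 0.25, edgeR adjusted p = 0.401). The median over the 10 genes was 0.25, against 0.01 over all genes.

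Beside these values, marker RNA of other cell types was also present in the proximal tubule-like sums. The summed endothelial markers, all 10 detected in each library, were at 13.0 and 17.7 CPM in wild type and at 127.0 and 72.1 CPM in Gulo-/-. The thick ascending limb markers, all 5 detected, were at 20.3 and 121.0 against 95.1 and 674.4 CPM, and the macrophage and monocyte markers, 6 or 7 of 7 detected, at 6.69 and 30.0 against 17.8 and 9.88 CPM. The wild type and Gulo-/- values overlapped for the thick ascending limb and for the macrophage and monocyte markers, but not for the endothelial markers. The part of this RNA in the proximal tubule differences was not tested.

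In endothelial-like cells 0 of 9 genes had both Gulo-/- libraries above both wild type ones (29.9% of all genes) and 1 had both below (12.6%). That gene was Egln3, at 48.0 and 21.0 CPM in wild type and at 16.9 and 19.0 CPM in Gulo-/-, from 19, 11, 14 and 79 UMIs. Wild type replicate 1 stood apart, and the difference was -1.03 ± 0.42 (edgeR adjusted p = 0.407). P4ha1 followed the same library, with 68.2 and 17.2 CPM against 29.0 and 20.9 CPM. Its difference of -0.89 ± 0.56 (edgeR adjusted p = 0.608) turned to 0.23 without wild type replicate 1. P4ha2 was at 32.8 and 19.1 against 21.7 and 56.3 CPM, and its difference of 0.54 ± 0.49 (adjusted p = 0.757) turned to -0.28 without Gulo-/- replicate 2. The remaining tested genes lay between -0.31 ± 0.57 for Egln1 and 0.11 ± 0.27 for Egln2. Whether the genotype difference was different in endothelial-like and proximal tubule-like cells was tested directly, and 2.41% of 11622 genes and 0 of 10 hydroxylase genes were called. P4ha1 came closest (-1.27 ± 0.58, edgeR adjusted p = 0.401). Its value rested on the wild type libraries, being 0.08 without replicate 1 and -2.38 without replicate 2, where it was called (adjusted p = 0.0012).

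In the smaller classes few of the genes could be tested. In thick ascending limb-like cells P4hb measured 137.9 and 117.9 CPM in the wild type libraries and 270.0 and 167.7 CPM in the Gulo-/- libraries (0.74 ± 0.33, edgeR adjusted p = 0.476). It was the 1 of 5 genes with Gulo-/- above (23.9% of all genes). Egln1, at 25.1 and 32.9 against 23.1 and 18.8 CPM, was the 1 with Gulo-/- below (12.9%). Its values rest on 4, 36, 9 and 372 UMIs. In macrophage and monocyte-like cells 2 of 3 had Gulo-/- above (31.3% of all genes): Egln2, at 14.8 and 19.7 against 40.1 and 57.9 CPM (1.22 ± 0.57, edgeR adjusted p = 0.621), and P4hb, at 29.6 and 84.9 against 96.3 and 111.2 CPM. No tested gene of the set was below (8.79% of all genes). These Egln2 values rest on 2, 10, 5 and 26 UMIs.

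**Figure D4:**
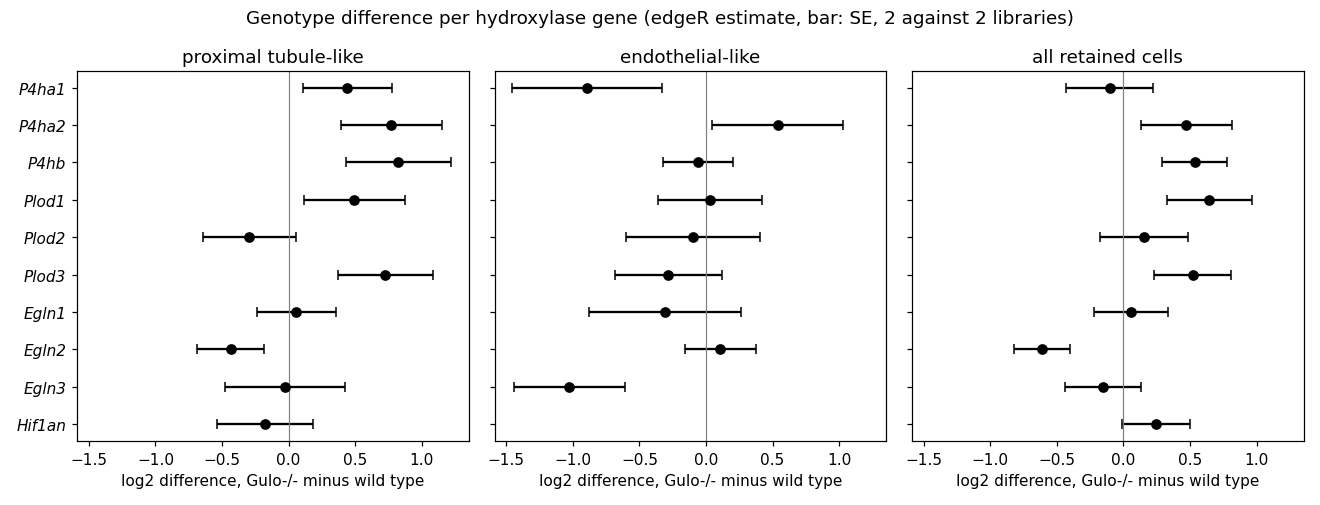
Log2 difference between Gulo-/- and wild type libraries (2 against 2) for each gene in proximal tubule-like cells, endothelial-like cells and all retained cells, with SE bars. P4hb, P4ha2 and Plod3 lie at 0.83, 0.77 and 0.73 in proximal tubule-like cells, and Egln3 at -1.03 in endothelial-like cells, none past the threshold.

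Summed over all retained cells, which adds changes in the make-up of the libraries to changes within classes, 8 of 10 genes had both Gulo-/- libraries above both wild type ones, where 54.8% of all genes did. P4hb measured 58.1 and 74.7 CPM in the wild type libraries and 144.5 and 129.9 CPM in the Gulo-/- libraries (0.54 ± 0.25, edgeR adjusted p = 0.205). Plod1 was at 6.14 and 5.09 against 14.3 and 10.7 CPM (0.65 ± 0.32, adjusted p = 0.229), and Plod3 at 6.73 and 4.93 against 11.5 and 12.2 CPM (0.52 ± 0.29, adjusted p = 0.269). Egln2 was at 43.7 and 53.2 against 42.7 and 48.0 CPM, with overlapping groups (-0.61 ± 0.21, edgeR adjusted p = 0.131). With library size alone the median of all genes moved from 0.06 to 0.58, so most genes were then higher in Gulo-/-.

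To approximate what the cell make-up alone would give, wild type levels of the classes were combined with each library's own mix of classes. Classes with few wild type cells were pooled with the cells that entered no class, and the pool had a common level. The pooled classes were thin limb, podocyte, stromal, dendritic, erythroid and urothelium-like cells. Cells that entered no class were 26.3% and 14.6% of wild type cells and 29.1% and 18.0% of Gulo-/- cells. For Plod1 this gave 6.26 and 5.06 CPM for the wild type mixes and 9.68 and 9.13 CPM for the Gulo-/- mixes, against 14.3 and 10.7 CPM measured in Gulo-/-. Plod3 came to 6.05 and 5.06 against 8.41 and 8.33 CPM. For P4hb it gave 68.3 and 72.7 against 72.0 and 90.5 CPM, below the measured 144.5 and 129.9 CPM. P4ha2 came to 4.18 and 3.50 against 4.93 and 3.04 CPM, where 8.50 and 6.78 CPM were measured. The Gulo-/- mixes lay above the wild type mixes for Plod1 and Plod3, and also for P4ha1, Plod2, Egln1 and Hif1an. For P4ha2, P4hb, Egln2 and Egln3 they did not. These values have no error of their own and were not tested. Shifts of make-up inside the pool do not enter them. A gap between such a value and the measured one therefore does not show a change within classes.

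Among the other lists, Slc23a3, a relative of the ascorbate transporters, was the only called gene in the genotype comparisons, higher in Gulo-/- proximal tubule-like cells (2.97 ± 0.48, edgeR adjusted p = 0.0381). The call was lost without Gulo-/- replicate 1 (adjusted p = 0.414) or replicate 2 (0.267), with the sex block (0.072) and with a gate of 10 marker UMIs (0.0578). In those cells the median difference was 0.90 over 9 other collagen-modifying genes and 1.08 over 6 collagens, with 0 called. Col4a5 (1.52 ± 0.31) and Colgalt2 (3.65 ± 0.82) had the lowest p in these lists (edgeR adjusted p = 0.0736 and 0.0888). The HIF pathway and HIF target lists had medians of 0.14 and -0.01. Hif1a differed by 1.02 ± 0.26 and Slc2a1, a glucose transporter and HIF target, by 1.70 ± 0.39 (edgeR adjusted p = 0.109 and 0.0932). In endothelial-like cells the same lists had medians of -0.49, 0.25, 0.46 and 0.61, and 0 genes were called.

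Over 34 class-by-library sums and 7916 genes, the patterns most like that of Plod2 were those of Timp3, Id4 and Tgfbr3 (Pearson r of log2 CPM 0.75, 0.74 and 0.72). For Egln3 they were Dok4, Plscr1 and Rab2a (0.74, 0.72 and 0.70), and for P4ha1 Syt11, Degs1 and Nod1 (0.62, 0.59 and 0.57). The sums share libraries and depths, so these values are descriptions.

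DNA methylation was taken from the authors' deposited table, which gives a mean methylation level (0 to 1) for each side of the comparison, with no value per sample and no coverage. The table does not say which genotype is side 1, so directions are given by side. Of the 62 regions 44 were lower on side 1 (71.0%), where 53.8% of all regions were, and the median absolute difference was 0.19 in both. Within the promoters, gene bodies and UTRs of the genes themselves lay 22 regions, 18 of them lower on side 1 (81.8%), against 65.2% of all 39528 regions annotated in that way. Plod3 had no region.

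Promoter regions were listed for P4ha1, P4ha2, P4hb, Plod1, Plod2 and Egln1. The P4ha1 region (mm10 chr10:59323172-59323743, 50 CpGs), which runs from the capital bases printed above past the transcription start, was at 0.114 on side 1 and 0.274 on side 2. The P4ha2 region (chr11:54100812-54101122, 47 CpGs) was at 0.121 and 0.224, the Egln1 promoter region (51 CpGs) at 0.189 and 0.331, and the P4hb region (15 CpGs) at 0.114 and 0.201. The Plod1 promoter region, at -1371 bases from the start with 10 CpGs, was at 0.291 and 0.529. All of these were lower on side 1. Plod2 was the exception, its promoter region of 36 CpGs (chr9:92542163-92542425) being at 0.201 on side 1 and 0.107 on side 2. Lower on side 1 were thus 5 of 6, where 78.5% of all promoter regions and 84.5% of those with at least 15 CpGs were.

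Egln2 had a region in its 5′ UTR at 0.190 and 0.361 (10 CpGs) and an intronic one at 0.700 and 0.839. P4ha2 had 7 regions, 6 of them lower on side 1, with an intronic one at 0.365 and 0.690, a difference of -0.324. The table assigned 27 regions to Egln3, more than to nearly all genes, since 1.04% of the 18425 genes with a region had as many and the median was 3. Of these 20 lay inside the transcript of the neighbouring gene Npas3, 138.2 to 464.8 kb from the Egln3 start, 4 were intergenic and 3 lay in Egln3 itself. All 9 regions of Hif1an were intergenic, 13.5 to 91.1 kb beyond its start.

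**Figure D5:**
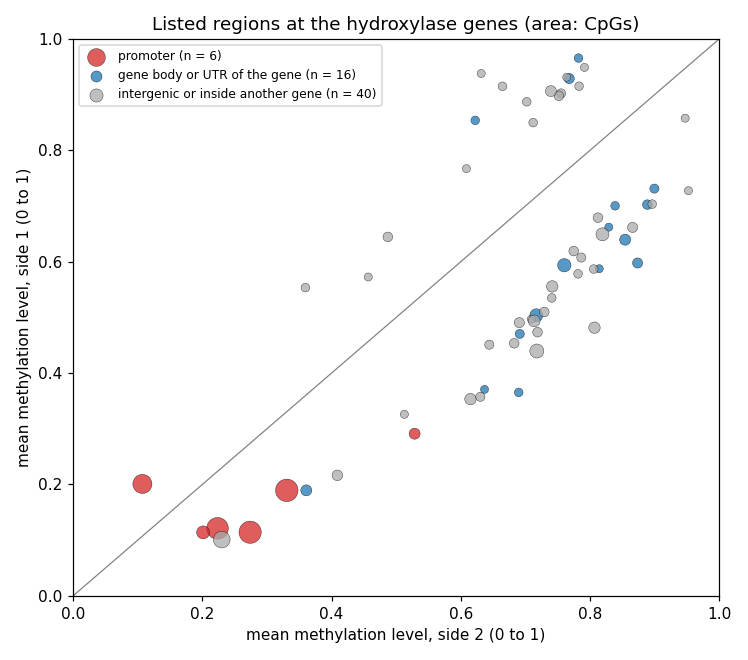
Mean methylation level of the 62 regions on side 1 (vertical) and side 2 (horizontal) of the authors' comparison, with point area by the number of CpGs and colour by location. Points below the diagonal are lower on side 1, among them 5 of the 6 promoter regions, and the Plod2 promoter (0.201 and 0.107) lies above it.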

How the data were processed

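Kidney single-cell libraries (2 wild type, 2 Gulo-/-) were analysed from the authors' deposited matrices of raw UMI counts per gene and barcode, made with a tool that no source used here names. Build mm10 and the tools MACS2 2.1.2 and Seurat 2.3.4 come from the submitters' processing notes. The deposited methylation table gives a mean methylation level (0 to 1) per side, CpG counts, a difference deposited as a score, and other values (annotation, distance to the start). Samples of m6A and bulk RNA sequencing were not analysed here.

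Cells needed at least 500 UMIs, 200 genes and at most 50% mitochondrial UMIs, and the highest Scrublet scores (scanpy 1.11.5) were removed at 0.8% per 1000 cells. A cell entered a class when, after taking off the marker UMIs that free RNA at 20% of its total would bring, it had at least 3 marker UMIs from at least 2 markers and 2 times those of any other class. Class sums per library were fitted with edgeR 4.0.16 (TMM, filterByExpr, robust quasi-likelihood F test, Benjamini-Hochberg over all genes tested, call under 0.05) where every library had at least 20 cells. Class contrasts and the class-by-genotype interaction had the library as a term. The fits were tested on simulated counts. DESeq2 1.42.0 gave alternatives. The genes, lists and tests were chosen with earlier results of these data known. The plan was to name all 10 genes in each comparison, and of 6 other lists at most 4 genes by lowest p. In some comparisons the text gives values for only part of the 10 genes. Listed region starts lay 1 base after the C of a CpG in all 1706 regions that could be checked against RefSeq promoter sequences.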

Additional observations from a re-analysis of the deposited data

How the results depend on the processing

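In the genotype comparisons within a class or over all cells, no alternative run gave a call of the 10 genes, but the genotype by class interaction of P4ha1 was called without wild type replicate 2 (-2.38, edgeR adjusted p = 0.0012). Counts of called genes over the whole table moved more. In all retained cells, 0 genes were called by edgeR with TMM, although 4407 had an unadjusted p under 0.05, and 2527 were called by DESeq2's Wald test, 1020 with library size alone, 1984 with no filter, 531 with the replicate block and 0 to 633 on leaving out a library (633 without Gulo-/- replicate 1). In proximal tubule-like cells 84 became 347 (Wald), 135 (library size), 1004 (no filter), 894 (replicate block), 42 (sex block) and 0 to 641 without a library. In endothelial-like cells 48 became 89 (Wald), 30 (mitochondrial limit of 25%), 392 (no filter), 237 (replicate block), 0 (sex block), 98 (shared barcodes kept) and 35 to 239 without a library. In thick ascending limb-like cells 123 became 14 (Wald) and 26 to 166 without a library, and with the 25% mitochondrial limit the class had too few cells to be fitted. In macrophage and monocyte-like cells 2 became 4 (Wald), 4 (library size), 0 and 19 (gate of 10 and of 2 marker UMIs), 7 (mitochondrial limit), 0 (doublets kept), 110 (no filter), 7 (no free RNA taken off, added after seeing the data), 0 (replicate block), 50 (sex block), 8 (shared barcodes kept) and 0 to 140 without a library. The interaction count of 280 ranged from 129 to 432 without a library. The labels do not pair the replicate numbers, and the correlation of deviations of same-numbered libraries was -0.02 in proximal tubule-like and 0.13 in endothelial-like cells over 2 pairs, so the block result is given here alone. Of the 62 regions, 25 had an absolute difference of at least 0.2 and 18 at least 10 CpGs, with 22 and 16 lower on side 1. Differences of the 10 genes changed sign in 42 of 547 genotype values, 7 of 195 class values and 5 of 40 interaction values over the alternatives. Among those given in the text, endothelial-like against proximal tubule-like cells turned for P4hb (0.11), Egln1 (0.50) and Egln2 (0.73) with library size and for Egln2 with DESeq2 size factors (0.15) and over the libraries left out (-0.11 to 0.22). Genotype in endothelial-like cells turned for P4ha1 (-1.56 to 0.23 over the libraries left out), P4ha2 (-0.28 to 0.94), Egln1 (-1.0 to 1.21) and Egln2 (-0.05 to 0.23), and the P4ha1 interaction ran from -2.38 to 0.08. Library size scaling was added after seeing the data. The cause of these shifts was not tested. With 2 libraries per genotype, differences of the size given could not be told from the spread.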
